A study of Mus musculus with 8 samples.

Results

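The 35 genes described here are mouse imprinted genes, taken by name from a fixed list that holds the *H19*-*Igf2*, *Kcnq1ot1*, *Meg3*-*Dlk1*, *Peg3* and *Snrpn* clusters, 5 further pairs of neighbours and 6 genes given singly. All 35 were found among the 55385 genes of the count table. No measured value served as a criterion for them, although earlier results of these data were known when the list was written. After the filter on low counts 33 of them were tested, among 17445 genes in all. The 2 that did not pass were *Igf2* and *Airn*.

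The data came from R1 mESCs, a mouse embryonic stem cell line kept in N2B27 medium with LIF and kinase inhibitors on plates with a poly-L-ornithine and laminin coat. All cells were infected with a lentivirus for 2 days and selected with puromycin for 3 days. Of the 8 poly(A)-selected libraries, 3 carried shRNA1 against the 3′ UTR of *Eftud2*, 3 carried shRNA2 against its coding sequence, and 2 carried nt-shRNA, a hairpin that targets no transcript. *Eftud2* encodes a GTPase of the U5 snRNP, the particle that works at the catalytic centre of the spliceosome, and the comparison asks how the RNA of imprinted genes changed when it was targeted by each hairpin. The replicates are labelled as biological, but the labels do not say whether they were separate cultures or days, so the p-values measure the spread between these libraries.

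An imprinted gene is expressed mainly or only from the copy inherited from 1 parent, because DNA methylation laid down in the egg or sperm marks a control region that the embryo then keeps. Imprinted genes lie in clusters in which a long noncoding RNA is often made from one parental chromosome and the neighbouring coding genes from the other. Many of them act on growth of the embryo and placenta, and mESCs are known to lose or change imprints in culture. The counts here do not separate the parental alleles, and in bulk libraries fewer cells that make an RNA and less RNA per cell cannot be told apart.

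Total counts ran from 19569525 to 29871048 per library, so that 3 counts correspond to between 0.1004 and 0.153 CPM. Levels below are CPM, counts scaled to a common library size by TMM, given for replicates in numbered order. Changes are log2 fold changes with their standard error (SE) and the Benjamini-Hochberg adjusted p of edgeR's quasi-likelihood test over all 17445 genes. Where changes are given as a pair, the former is shRNA1 and the latter shRNA2, both against nt-shRNA. *Eftud2* itself was at 262 and 256 CPM in the nt-shRNA libraries, 232, 229 and 225 CPM under shRNA1 and 198, 202 and 235 CPM under shRNA2. Its change was -0.18 (SE 0.0678, adjusted p = 0.0514) under shRNA1, which missed the threshold of 0.05, and -0.29 (SE 0.0678, adjusted p = 0.00122) under shRNA2. All 10 embryonic stem cell markers were detected, with a summed level of 4869 to 4876 CPM in nt-shRNA, 5462 to 5679 CPM under shRNA1 and 6399 to 6520 CPM under shRNA2. Of these 5 rose and 1 fell under shRNA1, where 13.8% of all genes rose and 17.1% fell, and 8 rose and 1 fell under shRNA2, where 27.2% rose and 28.7% fell. Of 8 fibroblast markers, 4 (*Col3a1*, *Postn*, *Lum* and *S100a4*) had at most 3 counts in any library. The summed level of the list was 21.2 to 23.1 CPM in nt-shRNA, 22.3 to 25.03 CPM under shRNA1 and 15.5 to 19.3 CPM under shRNA2, with *Col1a2* higher under both hairpins and *Pdgfrb* lower under shRNA2.

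Promoter windows, the 250 bases before a RefSeq transcript start, were read for the members because the factor ZFP57, which keeps imprints in mESCs, binds the methylated letters TGCCGC (reverse complement GCGGCA). Of the 35 members 27 had an entry in the RefSeq table (assembly GRCm38.p6), with 40 windows in all, and 7 of these (17.5%) held the letters on either strand, compared with 8.68% of the 32851 windows of the same length over all genes. The 7 windows belonged to *Copg2*, *Mcts2*, *Meg3*, *Mest*, *Plagl1* and *Zim1*. Those of *Mest* are 2 windows that start 3 bases apart and hold the same matches, so that 1 sequence is counted under both in the share, and overlapping windows were not merged for all genes either. The median number of CpG dinucleotides was 10 in the members' windows and 6.0 in all. A match describes the letters only, and the table is not complete. Printed here are windows of *Meg3*, *Mest* and *Mcts2*, chosen after their values were seen among the members with the letters. Also printed is the run between the divergent genes *Peg3* and *Usp29*, of which *Peg3* alone passed the test and between which there is no match. The letters are in capitals, each sequence runs 5′ to 3′ on the strand of the first gene named, and no base of an annotated exon of these genes is included. The *Meg3* window is chr12:109540746-109540995 (+ strand), the *Mest* window chr6:30737800-30738049 (+ strand), the *Mcts2* run chr2:152686898-152687034 (+ strand) and the *Peg3*-*Usp29* run chr7:6730432-6730577 (- strand).
Meg3: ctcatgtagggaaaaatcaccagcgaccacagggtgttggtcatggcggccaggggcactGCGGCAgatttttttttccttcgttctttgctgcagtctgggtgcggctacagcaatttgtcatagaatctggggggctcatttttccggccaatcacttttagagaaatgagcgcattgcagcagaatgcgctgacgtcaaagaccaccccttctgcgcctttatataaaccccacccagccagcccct
Mest: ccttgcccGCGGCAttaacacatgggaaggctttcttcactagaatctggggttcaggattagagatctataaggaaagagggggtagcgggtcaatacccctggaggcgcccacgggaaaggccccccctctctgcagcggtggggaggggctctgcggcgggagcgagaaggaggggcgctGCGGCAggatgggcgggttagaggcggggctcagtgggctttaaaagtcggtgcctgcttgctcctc
Mcts2: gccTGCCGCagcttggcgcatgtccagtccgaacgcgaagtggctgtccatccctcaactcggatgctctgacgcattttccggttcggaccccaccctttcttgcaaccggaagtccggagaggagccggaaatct
Peg3-Usp29: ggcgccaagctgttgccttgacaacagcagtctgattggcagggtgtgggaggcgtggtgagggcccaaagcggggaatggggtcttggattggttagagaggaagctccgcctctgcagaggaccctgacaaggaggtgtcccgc
The *Mest* window holds the letters 2 times and those of *Meg3* and *Mcts2* hold them 1 time each. RNA of *Meg3* fell and RNA of *Mest* and *Mcts2* rose under shRNA2, with values given below.

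Over the 33 members tested, 7 rose and 4 fell under shRNA1 against nt-shRNA, where 13.8% of all genes tested rose and 17.1% fell. Under shRNA2 15 members rose and 11 fell, against a background of 27.2% higher and 28.7% lower. Directly between the hairpins, 12 members were higher and 8 lower under shRNA2 than under shRNA1, where 16.9% of all genes were higher and 18.7% lower. The median change of the members was 0.10, 0.26 and 0.14 in these comparisons, and that of all genes -0.01, 0.00 and 0.00. The comparisons with nt-shRNA share the same 2 control libraries, so their values are set side by side only. Scaling by library size alone moved the split to 9 higher and 2 lower members under shRNA1 (all genes 4101 and 1713) and to 15 and 7 under shRNA2 (all genes 5850 and 4077), while it shifted the median of all genes to 0.11 and 0.09. The number of members called under shRNA1 was 7 without shRNA1 replicate 2, where 3697 of all genes were called (5388 with all libraries). Without nt-shRNA replicate 1 the members' median change under shRNA1 was 0.14.

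**Figure D1:**
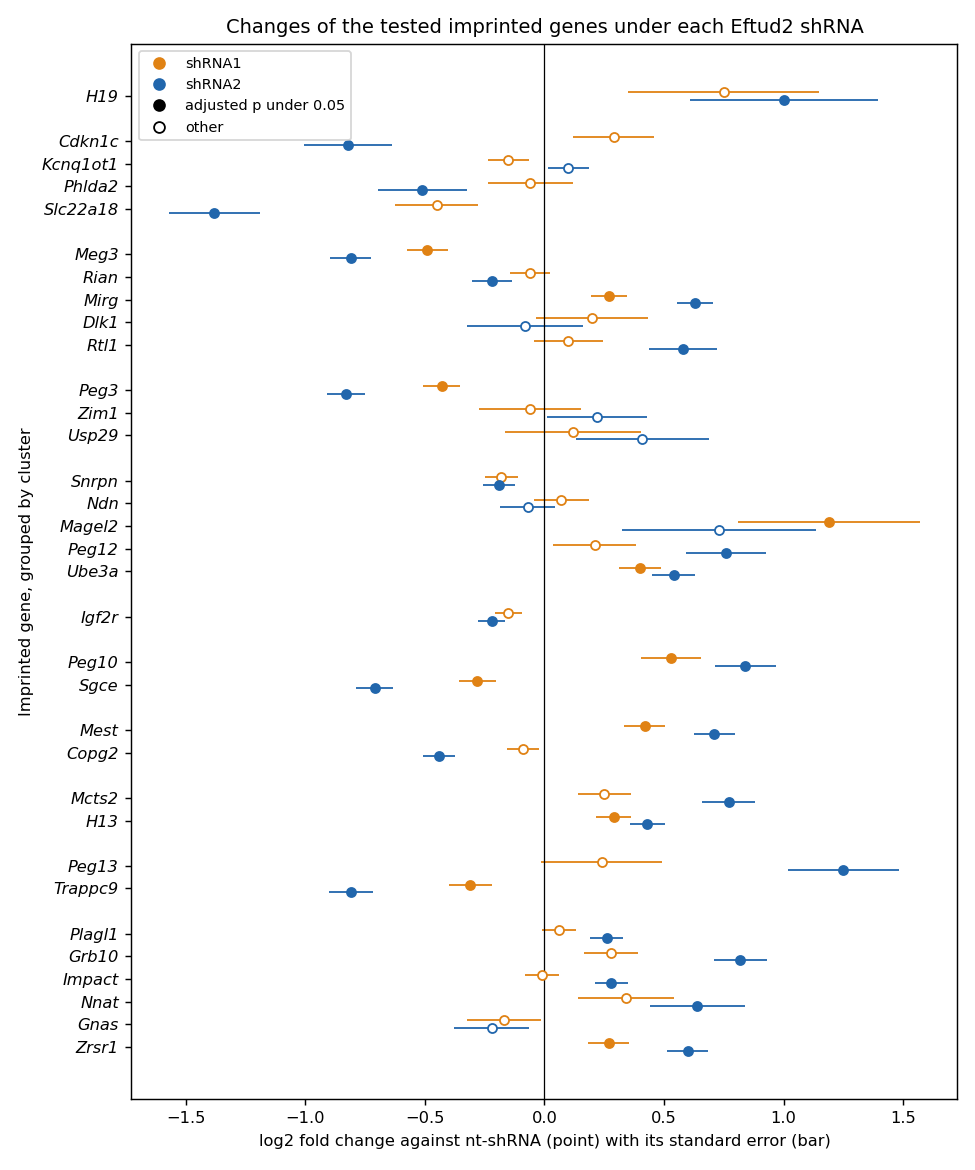
Log2 fold change of each tested imprinted gene against nt-shRNA (point) with its standard error (bar), in orange for shRNA1 and blue for shRNA2, with genes grouped by cluster. Filled points passed an adjusted p of 0.05 (11 under shRNA1 and 26 under shRNA2), and within the *Meg3*-*Dlk1*, *Snrpn*, *Peg10*-*Sgce*, *Mest*-*Copg2* and *Peg13*-*Trappc9* groups filled blue points lie on both sides of 0.

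In the *Meg3*-*Dlk1* cluster on chromosome 12 the maternally expressed noncoding RNAs did not move together: *Meg3* fell under both hairpins, *Mirg* rose under both, and *Rian* fell slightly under shRNA2. *Meg3* (ENSMUSG00000021268.17, chr12:109541001-109571726, + strand, 8 exon blocks) is a long noncoding RNA of the maternal chromosome. Its level was 791 and 701 CPM in nt-shRNA, 475, 542 and 578 CPM under shRNA1, and 422, 384 and 475 CPM under shRNA2. Every *Eftud2* shRNA library lay below both nt-shRNA libraries. The change was -0.49 (SE 0.0862, adjusted p = 0.000292) under shRNA1 and -0.81 (SE 0.0860, adjusted p = 2.44e-07) under shRNA2. Between the hairpins the change was -0.32 (adjusted p = 0.00394). *Rian* (ENSMUSG00000097451.11, chr12:109603808-109661716), the host of box C/D snoRNAs, was at 754 and 684 CPM in nt-shRNA, 694, 737 and 634 CPM under shRNA1 and 642, 540 and 674 CPM under shRNA2. The shRNA1 libraries overlapped nt-shRNA and the shRNA2 libraries lay just below. The changes were -0.06 (adjusted p = 0.594) and -0.22 (SE 0.0831, adjusted p = 0.0326). *Mirg* (ENSMUSG00000097391.8, chr12:109729764-109749460), the host of a large miRNA cluster, was at 39.8 and 39.2 CPM in nt-shRNA, 44.1, 51.7 and 46.7 CPM under shRNA1 and 58.7, 61.1 and 63.4 CPM under shRNA2. These 3 groups did not overlap. The change was 0.27 (SE 0.0770, adjusted p = 0.0126) under shRNA1, 0.63 (SE 0.0769, adjusted p = 1.31e-06) under shRNA2 and 0.36 (adjusted p = 0.000469) between the hairpins. Among the settings tried the *Rian* call under shRNA2 was lost in 4 of 15, without nt-shRNA replicate 1 or shRNA2 replicate 2 among them (adjusted p up to 0.261), and the change was -0.12 without shRNA2 replicate 2. The *Mirg* call under shRNA1 was lost without shRNA1 replicate 2 or either nt-shRNA replicate (adjusted p up to 0.0909).

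All 3 of these RNAs are transcribed 5′ to 3′ in the same direction, and *Rian* and *Mirg* begin 62.8 kb and 189 kb downstream of the *Meg3* start. Under shRNA2 their changes in that order were -0.81, -0.22 and 0.63, and under shRNA1 -0.49, -0.06 and 0.27. The log2 ratio of *Mirg* to *Meg3* was -4.31 and -4.16 in nt-shRNA, -3.43, -3.39 and -3.63 under shRNA1 and -2.84, -2.65 and -2.91 under shRNA2, with no overlap between groups. Between *Rian* and *Mirg*, Gm37899 changed by -0.35 (SE 0.297, adjusted p = 0.333) and B830012L14Rik by 0.28 (SE 0.211, adjusted p = 0.279) under shRNA2, both at low counts and neither past the test. Of the 5 tested genes of the interval that are no members, Gm34081 alone passed under shRNA2, and it is named here after its values were seen. It lies on the - strand at chr12:109493529-109516740, with its 3′ end 47.5 kb before the *Meg3* start. It had 23 to 39 counts, with a change of 0.94 (SE 0.250, adjusted p = 0.00351) under shRNA2 and 0.52 (SE 0.259, adjusted p = 0.138) under shRNA1. Of 102 annotated genes there 10 were tested, and fragments within the small RNA genes that lie inside *Meg3*, *Rian* and *Mirg* exons were shared between annotations and therefore not counted.

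The paternally expressed coding members of the cluster, *Rtl1* and *Dlk1*, were low. *Dio3*, a thyroid hormone deiodinase gene of the same region that is no member, had at most 118 counts and rose by 1.47 (adjusted p = 3.18e-05) and 1.51 (adjusted p = 5.09e-06). *Begain*, on the other side of the cluster and no member either, changed by -0.55 (adjusted p = 0.0382) and -0.89 (adjusted p = 0.000918). *Rtl1* (ENSMUSG00000085925.3, chr12:109589193-109600330, - strand), a retrotransposon-derived gene needed in the placenta, was at 4.57 and 5.12 CPM in nt-shRNA, 4.96, 5.58 and 5.06 CPM under shRNA1 and 7.63, 6.99 and 7.16 CPM under shRNA2. The shRNA2 libraries stood above all others, while shRNA1 overlapped nt-shRNA. The change was 0.58 (SE 0.141, adjusted p = 0.0017) under shRNA2 and 0.10 (adjusted p = 0.646) under shRNA1. The difference between hairpins was 0.48 (SE 0.127, adjusted p = 0.00606). Maternal transcripts antisense to *Rtl1* cannot be told apart from it, since the counting used no strand. *Dlk1* (ENSMUSG00000040856.17, chr12:109452823-109463336), which encodes a transmembrane relative of Notch ligands, was at 2.62 and 2.72 CPM in nt-shRNA and ranged from 1.91 to 3.99 CPM in the *Eftud2* shRNA libraries. The groups overlapped, and its changes of 0.20 (SE 0.234, adjusted p = 0.554) and -0.08 (SE 0.242, adjusted p = 0.807) were smaller than their errors.

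**Figure D2:**
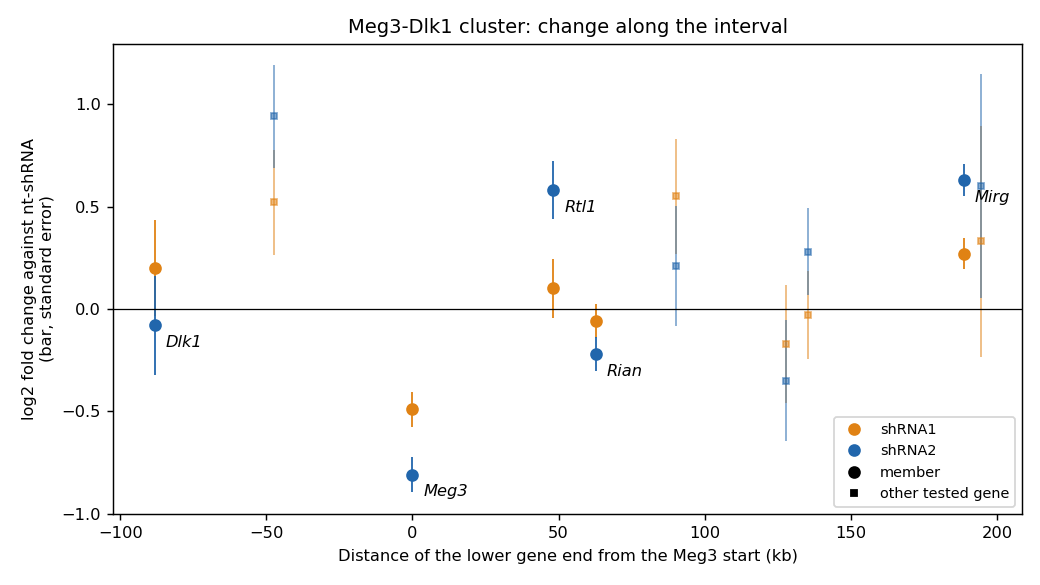
Log2 fold change against nt-shRNA (y axis, with standard error bars) of the 10 tested genes of the *Meg3*-*Dlk1* interval, by distance from the *Meg3* start in kb (x axis), orange for shRNA1 and blue for shRNA2, circles for members and small squares for others. *Meg3* lies lowest at -0.49 and -0.81, and *Mirg*, 189 kb downstream, lies above 0 at 0.27 and 0.63.

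In the *Kcnq1ot1* cluster on chromosome 7 the 3 maternally expressed coding members fell under shRNA2, and none of the 4 members passed the test under shRNA1 in the fit without a block. *Slc22a18* (ENSMUSG00000000154.16, chr7:143473736-143499334, + strand), an organic cation transporter family gene, was at 6.45 and 5.85 CPM in nt-shRNA, 4.10, 4.25 and 5.06 CPM under shRNA1 and 2.14, 1.85 and 3.08 CPM under shRNA2. The 3 groups did not overlap. With the replicate number as a block *Slc22a18* passed under shRNA1 (-0.61, adjusted p = 0.00673), as it did in 5 of 15 settings in all. The change without the block was -0.45 (SE 0.174, adjusted p = 0.0556) under shRNA1 and -1.38 (SE 0.189, adjusted p = 5.11e-06) under shRNA2. *Cdkn1c* (ENSMUSG00000037664.13, chr7:143458339-143461050, - strand), the cyclin-dependent kinase inhibitor p57, was at 4.91 and 4.81 CPM in nt-shRNA, 5.55, 5.04 and 7.06 CPM under shRNA1 and 2.79, 2.30 and 3.17 CPM under shRNA2. Its levels were lowest under shRNA2 and highest under shRNA1. The changes were 0.29 (SE 0.169, adjusted p = 0.209) under shRNA1, -0.82 (SE 0.184, adjusted p = 0.000915) under shRNA2 and -1.11 (SE 0.167, adjusted p = 6.85e-05) between the hairpins. *Phlda2* (ENSMUSG00000010760.5, chr7:143501545-143503150, - strand), a regulator of placental growth, was at 4.69 and 3.41 CPM in nt-shRNA, 3.56, 3.70 and 4.28 CPM under shRNA1 and 2.60, 2.75 and 3.12 CPM under shRNA2. The shRNA2 libraries lay below all others. The change was -0.06 (adjusted p = 0.82) under shRNA1 and -0.51 (SE 0.185, adjusted p = 0.0241) under shRNA2. That call was lost in 5 of 15 settings, among them DESeq2 and the fits without nt-shRNA replicate 1, shRNA2 replicate 1 or shRNA2 replicate 2 (adjusted p up to 0.341), and the change was -0.28 without nt-shRNA replicate 1. The difference between the hairpins (-0.45, adjusted p = 0.0475) was lost in 7, including each of the fits without 1 of the shRNA1 replicates or without shRNA2 replicate 1 or 2 (adjusted p up to 0.167).

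The noncoding RNA that silences these genes on the paternal chromosome, *Kcnq1ot1* (ENSMUSG00000101609.2, chr7:143203458-143296549, - strand, 1 exon block), was at 27.9 and 27.4 CPM in nt-shRNA, 25.5, 26.4 and 23.1 CPM under shRNA1 and 29.9, 30.9 and 27.9 CPM under shRNA2. The 3 groups did not overlap but lay close together. The changes against nt-shRNA were -0.15 (SE 0.0855, adjusted p = 0.208) and 0.10 (SE 0.0852, adjusted p = 0.336), neither past the test, while shRNA2 was above shRNA1 by 0.25 (SE 0.0777, adjusted p = 0.0191). This difference was lost without the filter on low counts and without shRNA1 replicate 3, shRNA2 replicate 1 or shRNA2 replicate 2 (adjusted p up to 0.0834). *Kcnq1*, which lies on the opposite strand around it, had at most 26 counts and was not tested. Of the other imprinted genes tested in the same region, *Ascl2* (-1.33), *Cd81* (-0.45) and *Tspan32* (-0.59) fell under shRNA2, while *Nap1l4* (-0.01), *Tssc4* (-0.05), *Osbpl5* (0.19) and *Tnfrsf23* (0.51) did not pass the test. Under shRNA1 *Cd81* fell as well (-0.48, adjusted p = 5.69e-05), and the others named here did not pass.

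*Cdkn1c*, *Phlda2* and *Slc22a18* are also expressed in trophoblast, and markers of other cell types were therefore set beside them. The summed level of 8 trophoblast markers was 204 to 207 CPM in nt-shRNA, 158 to 184 CPM under shRNA1 and 136 to 152 CPM under shRNA2. Under shRNA2 3 of the 6 tested fell (*Hand1*, *Krt8* and *Krt18*) and none rose, where 28.7% of all genes fell and 27.2% rose. *Tpbpa* of the same list had at most 3 counts in any library. Under shRNA1 *Krt18* fell (-0.65, adjusted p = 5.04e-05) and no other marker of the list passed the test. Primitive endoderm markers summed to 44.6 to 46.0, 42.9 to 49.0 and 36.2 to 42.0 CPM in the same order, with 1 of 5 tested (*Gata6*) lower under shRNA2. Primed and early germ-layer markers summed to 69.8 to 86.4, 71.1 to 72.8 and 58.0 to 64.5 CPM, with 1 of 7 tested higher (*Mixl1*) and 1 lower (*Otx2*) under shRNA2, 1 lower (*T*) under shRNA1 and *Fgf5* at no more than 3 counts. The part of these cell types in the changes of the cluster was not tested.

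In the *Peg3* cluster, also on chromosome 7, *Peg3* was the only one of its 3 members to pass the test, and it fell under both hairpins. *Peg3* (ENSMUSG00000002265.17, chr7:6703892-6730431, - strand), a paternally expressed zinc finger gene, was at 56.7 and 59.7 CPM in nt-shRNA, 42.1, 40.6 and 46.9 CPM under shRNA1 and 34.8, 31.1 and 32.1 CPM under shRNA2. The 3 groups were fully separate. The changes were -0.43 (SE 0.0777, adjusted p = 0.000374), -0.83 (SE 0.0789, adjusted p = 5.42e-08) and, between the hairpins, -0.40 (SE 0.0733, adjusted p = 0.000352). *Usp29* (ENSMUSG00000051527.11), a paternally expressed ubiquitin protease gene that starts 146 bases away on the other strand, ranged from 0.801 to 1.40 CPM over the 8 libraries. Its groups overlapped and its changes were 0.12 (SE 0.283, adjusted p = 0.78) and 0.41 (SE 0.277, adjusted p = 0.217). With 1 library left out the shRNA2 change ran from 0.20 (without nt-shRNA replicate 2) to 0.64 (without nt-shRNA replicate 1). *Zim1* (ENSMUSG00000002266.17), a maternally expressed zinc finger gene, ranged from 1.76 to 2.79 CPM, and its groups overlapped as well (adjusted p of 0.848 and 0.392). The errors of these changes were large beside those of *Peg3* because both genes had few counts, at most 31 for *Usp29* and 66 for *Zim1*. Of other imprinted genes beside *Usp29*, *Zfp264* rose by 0.22 (adjusted p = 0.041) under shRNA2 and *Zim3* (-0.57, adjusted p = 0.242) did not pass the test.

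In the *Snrpn* cluster on chromosome 7, the region of Prader-Willi and Angelman syndromes in human, *Ube3a* rose under both hairpins, *Peg12* rose and *Snrpn* fell slightly under shRNA2, *Magel2* rose under shRNA1, and *Ndn* did not pass the test. *Ube3a* (ENSMUSG00000025326.12, chr7:59228750-59311536, + strand), a ubiquitin ligase gene expressed from the maternal copy in neurons and from both copies in most other cells, was at 54.5 and 60.1 CPM in nt-shRNA, 81.1, 81.3 and 64.7 CPM under shRNA1 and 87.2, 79.1 and 83.4 CPM under shRNA2. Every *Eftud2* shRNA library lay above nt-shRNA, and the hairpins overlapped each other. The change was 0.40 (SE 0.0883, adjusted p = 0.00203) under shRNA1, a call lost without nt-shRNA replicate 1 (adjusted p = 0.0519). It was 0.54 (SE 0.0885, adjusted p = 4.22e-05) under shRNA2. Its antisense partner *Snhg14* covers 8.7% of the *Ube3a* exon bases, where unstranded fragments were not counted for either. *Snhg14* changed by -0.14 (adjusted p = 0.301) and -0.43 (SE 0.102, adjusted p = 0.00147). Of other imprinted genes of the region, *Mkrn3* rose by 0.59 (adjusted p = 0.00175) and *Atp10a* changed by -1.39 (adjusted p = 1.58e-06) under shRNA2. Under shRNA1 *Atp10a* changed by -0.68 (adjusted p = 0.00343) and *Mkrn3* did not pass the test (0.14, adjusted p = 0.479).

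*Snrpn* (ENSMUSG00000102252.5, chr7:59982495-60140219, - strand), a paternally expressed spliceosome gene, was at 63.3 and 62.4 CPM in nt-shRNA, 58.7, 55.3 and 52.9 CPM under shRNA1 and 54.6, 57.1 and 53.9 CPM under shRNA2. All *Eftud2* shRNA libraries lay below nt-shRNA, by -0.18 (SE 0.0684, adjusted p = 0.0548) and -0.19 (SE 0.0686, adjusted p = 0.026). The hairpins did not differ beyond their spread (-0.01, adjusted p = 0.923). The shRNA2 call was lost in 6 of 15 settings, without either nt-shRNA replicate and without shRNA2 replicate 1 or 3 among them (adjusted p up to 0.228). Other genes share 27.3% (Gm38393) and 10% (*Snurf*) of its exon bases. Its autosomal relative *Snrpb*, which encodes the SmB protein of spliceosomal snRNPs, changed by 0.07 (adjusted p = 0.433) and 0.25 (SE 0.0671, adjusted p = 0.00374).

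*Peg12* (ENSMUSG00000070526.2, chr7:62461871-62464510), a paternally expressed gene of 1 exon block, was at 3.90 and 6.31 CPM in nt-shRNA, 6.13, 5.82 and 5.78 CPM under shRNA1 and 7.81, 9.02 and 9.22 CPM under shRNA2. The nt-shRNA libraries differed widely, the shRNA1 libraries lay between them (0.21, adjusted p = 0.39), and the shRNA2 libraries lay above both of them (0.76, SE 0.169, adjusted p = 0.000789). The shRNA2 change was 0.46 without nt-shRNA replicate 1 and 1.15 without nt-shRNA replicate 2. *Magel2* (ENSMUSG00000056972.6, chr7:62377010-62381640), which encodes a MAGE family protein that works with ubiquitin ligases, was at 0.375 and 0.732 CPM in nt-shRNA, 0.812, 1.43 and 1.57 CPM under shRNA1 and 0.605, 0.857 and 1.33 CPM under shRNA2. It had at most 44 counts in a library, and shRNA1 lay above nt-shRNA while shRNA2 overlapped it. The change was 1.19 (SE 0.380, adjusted p = 0.0224) under shRNA1 and 0.73 (SE 0.404, adjusted p = 0.131) under shRNA2. With 1 library left out the shRNA2 change ran from 0.34 (without nt-shRNA replicate 1) to 1.30 (without nt-shRNA replicate 2). The difference between the hairpins missed the threshold (-0.46, adjusted p = 0.28) and ran from -0.81 (without shRNA2 replicate 3) to -0.23 (without shRNA2 replicate 1). The shRNA1 call was lost with DESeq2 and without shRNA1 replicate 2, shRNA1 replicate 3 or nt-shRNA replicate 1 (adjusted p up to 0.23). *Ndn* (ENSMUSG00000033585.5), a gene of the same family, ranged from 15.6 to 20.97 CPM with overlapping groups and changed by 0.07 (SE 0.115, adjusted p = 0.698) and -0.07 (SE 0.116, adjusted p = 0.606).

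The *H19*-*Igf2* cluster was nearly silent. *H19* (ENSMUSG00000000031.16, chr7:142575529-142578143, - strand), a maternally expressed noncoding RNA, was at 0.525 and 1.29 CPM in nt-shRNA, 0.586, 1.73 and 2.21 CPM under shRNA1 and 1.91, 1.76 and 1.84 CPM under shRNA2, from 13 to 62 counts. The shRNA1 libraries overlapped nt-shRNA (0.75, SE 0.399, adjusted p = 0.168) and the shRNA2 libraries lay above both nt-shRNA libraries (1.00, SE 0.393, adjusted p = 0.0376). The shRNA2 call was lost without any 1 of the shRNA2 replicates and without nt-shRNA replicate 1 (adjusted p up to 0.355). With 1 library left out the shRNA2 change ran from 0.50 (without nt-shRNA replicate 1) to 1.79 (without nt-shRNA replicate 2), and the shRNA1 change from 0.26 to 1.54 without the same libraries. *Igf2* (ENSMUSG00000048583.16), the paternally expressed growth factor, had at most 3 counts in any library. A share of 62.8% of its exon bases is held in common with the overlapping Gm49394, where fragments were counted for neither gene. In the *Igf2r*-*Airn* pair on chromosome 17, *Igf2r* (ENSMUSG00000023830.14, chr17:12682406-12769664), the receptor that removes IGF2, was at 229 and 219 CPM in nt-shRNA, 202, 198 and 208 CPM under shRNA1 and 189, 192 and 197 CPM under shRNA2. Its 3 groups did not overlap. With the replicate block *Igf2r* passed under shRNA1 (-0.16, adjusted p = 0.0374). Without the block the changes were -0.15 (SE 0.0574, adjusted p = 0.0607) and -0.22 (SE 0.0574, adjusted p = 0.00331). The latter call was lost with library size alone and without nt-shRNA replicate 1 (adjusted p up to 0.0565). The noncoding *Airn*, which silences *Igf2r* on the paternal chromosome in other tissues, had at most 16 counts and was not tested.

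**Figure D3:**
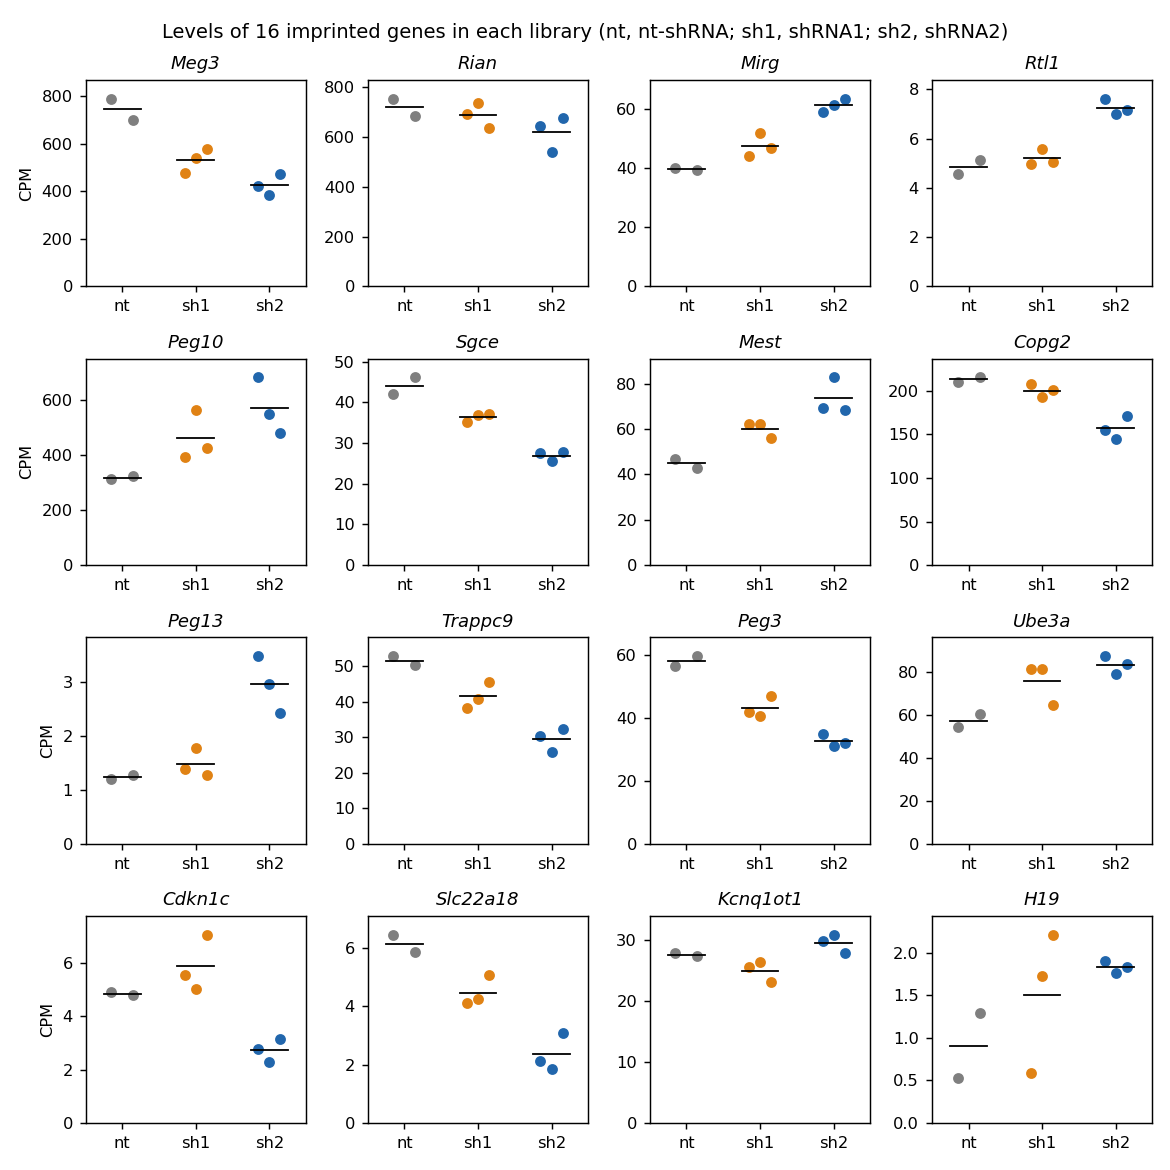
Level in CPM (linear axis from 0) of 16 imprinted genes in each library, with nt-shRNA in grey (nt, 2 libraries), shRNA1 in orange (sh1, 3 libraries) and shRNA2 in blue (sh2, 3 libraries), and the group mean as a line. *Sgce*, *Trappc9* and *Peg3* step down and *Mirg* and *Mest* step up from nt-shRNA to shRNA1 to shRNA2 without overlap of the groups. *Meg3* steps down too, but its hairpin groups nearly touch, at 475.4 CPM (shRNA1 replicate 1) and 475.0 CPM (shRNA2 replicate 3). The *H19* libraries of shRNA1 spread over 0.586 to 2.21 CPM.

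In 3 pairs of neighbours one member rose and the other fell under shRNA2. *Peg10* (ENSMUSG00000092035.8, chr6:4747306-4760517, + strand), a paternally expressed retrotransposon-derived gene needed in the placenta, was at 311 and 325 CPM in nt-shRNA, 393, 563 and 425 CPM under shRNA1 and 681, 548 and 479 CPM under shRNA2. All *Eftud2* shRNA libraries lay above nt-shRNA and the hairpins overlapped. The changes were 0.53 (SE 0.127, adjusted p = 0.00348) and 0.84 (SE 0.128, adjusted p = 1.75e-05). *Sgce* (ENSMUSG00000004631.15, chr6:4674350-4747207, - strand), the paternally expressed epsilon-sarcoglycan gene that starts 98 bases away on the other strand, was at 42.0 and 46.1 CPM in nt-shRNA, 35.05, 36.8 and 37.1 CPM under shRNA1 and 27.5, 25.5 and 27.9 CPM under shRNA2. It fell without overlap of the groups, by -0.28 (SE 0.0766, adjusted p = 0.00933) and -0.71 (SE 0.0779, adjusted p = 3.43e-07). The log2 ratio of *Peg10* to *Sgce* was 2.85 ± 0.052 (SD, n = 2) in nt-shRNA, 3.65 ± 0.250 (n = 3) under shRNA1 and 4.39 ± 0.267 (n = 3) under shRNA2. With DESeq2 the shRNA1 change of *Peg10* had an adjusted p of 0.059. The shRNA1 call of *Sgce* was lost with library size alone and without nt-shRNA replicate 2 (adjusted p up to 0.154). The difference of *Peg10* between the hairpins (0.31, adjusted p = 0.038) was lost in 7 settings, including the fits without shRNA1 replicate 1 or 3 or shRNA2 replicate 1 or 2 (adjusted p up to 0.3). It was 0.16 without shRNA2 replicate 1 and 0.48 without shRNA1 replicate 2.

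*Mest* (ENSMUSG00000051855.15, chr6:30723547-30748465, + strand), a paternally expressed gene for a hydrolase-like protein of mesoderm, was at 46.9 and 43.0 CPM in nt-shRNA, 62.1, 62.1 and 56.1 CPM under shRNA1 and 69.3, 82.8 and 68.4 CPM under shRNA2. The 3 groups did not overlap, and it rose by 0.42 (SE 0.0858, adjusted p = 0.00107), 0.71 (SE 0.0858, adjusted p = 1.14e-06) and, between the hairpins, 0.29 (SE 0.0753, adjusted p = 0.00546). *Copg2* (ENSMUSG00000025607.15, chr6:30747554-30896794, - strand), a coatomer subunit gene that meets *Mest* tail to tail, was at 211 and 216 CPM in nt-shRNA, 207, 193 and 201 CPM under shRNA1 and 155, 145 and 172 CPM under shRNA2. Only its shRNA2 change passed the test (-0.44, SE 0.0677, adjusted p = 2.02e-05, against -0.09, adjusted p = 0.34), and shRNA2 lay below shRNA1 by -0.35 (adjusted p = 0.000258). The genes share 912 exon bases, 23.1% of *Mest* and 17.8% of *Copg2*, where fragments were counted for neither. The log2 ratio of *Mest* to *Copg2* was -2.25 ± 0.113 (SD, n = 2), -1.74 ± 0.102 (n = 3) and -1.10 ± 0.267 (n = 3) in nt-shRNA, shRNA1 and shRNA2.

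*Peg13* (ENSMUSG00000106847.1, chr15:72805600-72810324, - strand, 1 exon block), a paternally expressed noncoding RNA, lies inside *Trappc9* on the same strand. It was at 1.20 and 1.29 CPM in nt-shRNA, 1.40, 1.78 and 1.28 CPM under shRNA1 and 3.49, 2.98 and 2.43 CPM under shRNA2. The shRNA1 libraries overlapped nt-shRNA, while the shRNA2 libraries lay above all others. The changes were 0.24 (SE 0.252, adjusted p = 0.505), 1.25 (SE 0.232, adjusted p = 0.00015) and, between the hairpins, 1.01 (SE 0.205, adjusted p = 0.000921). The shRNA1 change was 0.10 without shRNA1 replicate 2. *Trappc9* (ENSMUSG00000047921.17, chr15:72589620-73061204, - strand, 27 exon blocks), a membrane trafficking gene expressed mainly from the maternal copy in brain, was at 52.7 and 50.3 CPM in nt-shRNA, 38.3, 40.7 and 45.4 CPM under shRNA1 and 30.3, 25.8 and 32.4 CPM under shRNA2. It fell by -0.31 (SE 0.0899, adjusted p = 0.0129) and -0.81 (SE 0.0916, adjusted p = 5.18e-07) with no overlap of the groups. Its shRNA1 call was lost with library size alone and without shRNA1 replicate 1, shRNA1 replicate 2 or nt-shRNA replicate 1 (adjusted p up to 0.117). Since *Peg13* lies in an intron of *Trappc9*, fragments from unspliced *Trappc9* RNA over it would count as *Peg13*. The log2 ratio of *Peg13* to *Trappc9* was -5.37 ± 0.122 (SD, n = 2) in nt-shRNA, -4.81 ± 0.316 (n = 3) under shRNA1 and -3.32 ± 0.357 (n = 3) under shRNA2.

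**Figure D4:**
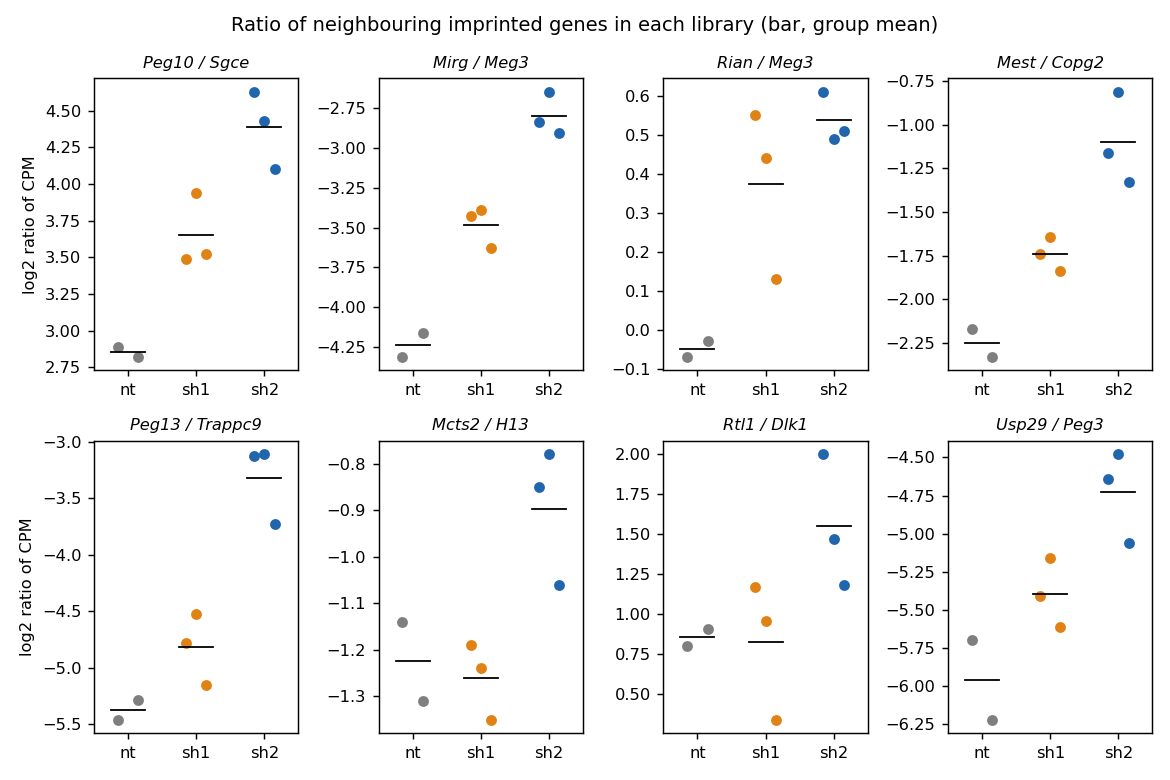
Log2 ratio of the CPM of neighbouring imprinted genes in each library (y axes, each with its own range), for nt-shRNA (nt), shRNA1 (sh1) and shRNA2 (sh2), with the group mean as a line. The ratio of *Peg10* to *Sgce* stood at 2.82 to 2.89 in nt-shRNA, 3.49 to 3.94 under shRNA1 and 4.10 to 4.63 under shRNA2, and in the *Mcts2* to *H13* and *Rtl1* to *Dlk1* panels the shRNA1 and nt-shRNA libraries overlap.

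The retrogene *Mcts2* and its host *H13* both rose under shRNA2, and in the fit without a block *H13* alone passed the test under shRNA1. With the replicate block *Mcts2* passed there too (0.32, adjusted p = 0.0233), as it did in 4 of 15 settings in all. Since *Mcts2* lies inside *H13* on the same strand, fragments from unspliced *H13* RNA over it would count as *Mcts2*. *Mcts2* (ENSMUSG00000042814.8, chr2:152687035-152687946, + strand, 1 exon block), a paternally expressed copy of the translation factor gene *Mcts1*, was at 15.4 and 14.1 CPM in nt-shRNA, 17.6, 18.0 and 17.04 CPM under shRNA1 and 25.8, 28.1 and 21.5 CPM under shRNA2. The 3 groups were separate. The changes were 0.25 (SE 0.110, adjusted p = 0.0886) and 0.77 (SE 0.109, adjusted p = 7.67e-06). *H13* (ENSMUSG00000019188.16, chr2:152669461-152708670, + strand), a signal peptide peptidase gene, was at 34.0 and 35.01 CPM in nt-shRNA, 40.2, 42.5 and 43.6 CPM under shRNA1 and 46.5, 48.1 and 44.9 CPM under shRNA2. Its groups were separate too, and it rose by 0.29 (SE 0.0732, adjusted p = 0.00565; without nt-shRNA replicate 1, 0.0724) and 0.43 (SE 0.0733, adjusted p = 6.01e-05). Between the hairpins *Mcts2* differed by 0.52 (SE 0.0965, adjusted p = 0.00045) and *H13* by 0.14 (SE 0.0650, adjusted p = 0.0938). The log2 ratio of *Mcts2* to *H13* was -1.23 ± 0.121 (SD, n = 2) in nt-shRNA, -1.26 ± 0.085 (n = 3) under shRNA1 and -0.90 ± 0.148 (n = 3) under shRNA2, and the shRNA2 libraries lay above all others. The source copy *Mcts1* changed by -0.05 (adjusted p = 0.73) and 0.02 (SE 0.0903, adjusted p = 0.885), and fragments that align to both copies were left out of the counts.

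Of the 6 members given singly, 5 rose under shRNA2, where 27.2% of all genes rose, and *Gnas* did not pass the test. *Grb10* (ENSMUSG00000020176.17, chr11:11930508-12038683), an adaptor that dampens insulin signalling, was at 11.9 and 12.3 CPM in nt-shRNA, 14.1, 16.3 and 13.7 CPM under shRNA1 and 19.1, 22.9 and 22.3 CPM under shRNA2. The groups were separate. The changes were 0.28 (SE 0.114, adjusted p = 0.0729) and 0.82 (SE 0.112, adjusted p = 4.88e-06). *Zrsr1* (ENSMUSG00000044068.7, chr11:22972005-22976496, 1 exon block), a paternally expressed retrogene for a splicing factor of the U2AF family, was at 25.9 and 27.8 CPM in nt-shRNA, 31.8, 33.1 and 32.2 CPM under shRNA1 and 42.9, 42.8 and 36.5 CPM under shRNA2. Its groups did not overlap, and it rose by 0.27 (SE 0.0856, adjusted p = 0.0213) and 0.60 (SE 0.0854, adjusted p = 7.54e-06). The former call was lost without shRNA1 replicate 2 or either nt-shRNA replicate (adjusted p up to 0.194). The related *Zrsr2* changed by -0.09 (adjusted p = 0.407) and 0.24 (SE 0.0770, adjusted p = 0.0111). *Commd1*, which surrounds *Zrsr1* on the other strand and shares 412 exon bases with it, changed by -0.30 (adjusted p = 0.0107) and -0.39 (SE 0.0836, adjusted p = 0.000655).

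*Plagl1* (ENSMUSG00000019817.18, chr10:13060504-13131694), a zinc finger gene that regulates other imprinted genes, was at 120 and 114 CPM in nt-shRNA, 120, 129 and 116 CPM under shRNA1 and 153, 134 and 133 CPM under shRNA2. The shRNA2 libraries lay above all others (0.26, SE 0.0708, adjusted p = 0.0039), with a call lost without nt-shRNA replicate 2 (adjusted p = 0.0653), and shRNA1 overlapped nt-shRNA (0.06, adjusted p = 0.548). *Impact* (ENSMUSG00000024423.6), an inhibitor of the kinase GCN2, was at 120 and 125 CPM in nt-shRNA, 126, 129 and 110 CPM under shRNA1 and 145, 156 and 145 CPM under shRNA2. It was higher only under shRNA2 (0.28, SE 0.06996, adjusted p = 0.0021, against -0.01, adjusted p = 0.914), and the difference between the hairpins was 0.29 (SE 0.0626, adjusted p = 0.00132). *Nnat* (ENSMUSG00000067786.16), a membrane proteolipid gene, was at 2.92 and 2.68 CPM in nt-shRNA, 2.80, 3.41 and 4.35 CPM under shRNA1 and 4.14, 5.10 and 3.90 CPM under shRNA2. Its shRNA2 libraries lay above nt-shRNA and overlapped shRNA1. It rose by 0.64 (SE 0.199, adjusted p = 0.00983) under shRNA2, a call lost without nt-shRNA replicate 2 (adjusted p = 0.0731). *Blcap*, in whose intron *Nnat* lies on the other strand, rose by 0.52 under shRNA2 (SE 0.0849, adjusted p = 3.77e-05). *Gnas* (ENSMUSG00000027523.20), the gene of the stimulatory G protein subunit, ranged from 7.17 to 11.7 CPM with overlapping groups (adjusted p of 0.439 and 0.249). That level is low for a gene known to be expressed in most cells and is given as counted, with no check of it made. Antisense genes share 12.9% (Gm20721) and 8.7% (*Nespas*) of its exon bases.

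Per kb of annotated exon, the level in nt-shRNA was 47.7 CPM per kb for *Peg10*, 41.6 CPM per kb for *Copg2*, 41.2 CPM per kb for *Meg3* and 29.1 CPM per kb for *Snrpn*, and it was 0.0522 CPM per kb for *Usp29*. The length includes exon bases shared with other genes, where no fragment was counted, so the levels of genes such as *Copg2* and *Snrpn* are understated and no order is read from the values. Under shRNA2 *Peg10* stood at 85.4, *Copg2* at 30.7 and *Meg3* at 23.6 CPM per kb.

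Properties that the choice of genes did not use were read across the members. Of the 7 tested members with 1 exon block (*Kcnq1ot1*, *Magel2*, *Mcts2*, *Ndn*, *Peg12*, *Peg13* and *Zrsr1*), 4 rose and 0 fell under shRNA2, with a median change of 0.73, and the others missed the threshold. Of the 26 tested members with more blocks 11 rose and 11 fell, with a median of 0.07. Among all 2013 tested genes of 1 block 25.6% rose and 14.2% fell under shRNA2 (median 0.19), and among the 15432 with more blocks 27.4% rose and 30.6% fell (median -0.01). Under shRNA1 2 of the 7 rose and 0 fell (median 0.24), where 10.8% of all 1-block genes rose and 9.79% fell (median 0.03). By the parental copy they are known to be expressed from, the 9 tested maternal members had 2 higher and 6 lower under shRNA2 (median -0.22), the 18 tested paternal members 10 higher and 3 lower (median 0.50), and the 6 whose imprinting depends on tissue 3 higher and 2 lower (median 0.11), where 27.2% of all genes rose and 28.7% fell. Under shRNA1 the counts were 1 higher and 1 lower for the maternal members (median -0.06), 4 and 2 for the paternal (median 0.16) and 2 and 1 for the others (median 0.09), where 13.8% of all genes rose and 17.1% fell. The 6 lower maternal members include *Igf2r*, although *Airn*, which silences its paternal copy in other tissues, had at most 16 counts here. Which copies were expressed in these cells was not tested. All 1-block members are paternally expressed, so these descriptions overlap, and members of a cluster are not independent of each other.

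The factors that keep or reset imprints were read from a list of 22 genes, all of them tested. Under shRNA1 7 rose and 3 fell, and under shRNA2 11 rose and 7 fell (median change 0.16). Of all genes tested 13.8% rose and 17.1% fell under shRNA1, and 27.2% rose and 28.7% fell under shRNA2. The 3 with the smallest adjusted p under shRNA2 rose: *Tet2*, which oxidises methylated cytosine, by 1.57 (SE 0.0966, adjusted p = 2.94e-10), the de novo methyltransferase gene *Dnmt3b* by 1.25 (SE 0.0902, adjusted p = 1.79e-09), and *Trim28*, the corepressor recruited by ZFP57, by 0.53 (SE 0.0623, adjusted p = 8.68e-07). Of the 7 that fell under shRNA2, *Ehmt2* (-0.59, adjusted p = 1.4e-06) and *Uhrf1* (-0.44, adjusted p = 1.36e-05) had the smallest adjusted p. *Zfp57* itself changed by -0.01 (adjusted p = 0.913) under shRNA1 and 0.19 (adjusted p = 0.0117) under shRNA2. *Tet2* was at 110 and 111 CPM in nt-shRNA, 161, 172 and 144 CPM under shRNA1 and 346, 362 and 276 CPM under shRNA2. The 3 groups did not overlap. Among 36 other imprinted genes, 29 were tested, of which 3 rose and 4 fell under shRNA1 and 8 rose and 9 fell under shRNA2 (median 0.06). Their shares of 27.6% higher and 31.0% lower under shRNA2 were near the 27.2% and 28.7% of all genes, and the shares under shRNA1 were 10.3% and 13.8%, against 13.8% and 17.1%. Their leading genes by adjusted p under shRNA2 were *Zdbf2*, a paternally expressed growth gene (2.55, SE 0.157, adjusted p = 2.97e-10), *Atp10a*, a lipid flippase gene (-1.39, SE 0.173, adjusted p = 1.58e-06), and *Jade1*, a subunit gene of histone acetyltransferase complexes (0.48, SE 0.0619, adjusted p = 2.57e-06). *Zdbf2* was at 13.9 and 15.6 CPM in nt-shRNA, 39.3, 38.7 and 29.3 CPM under shRNA1 and 89.3, 105 and 66.3 CPM under shRNA2. Its 3 groups did not overlap.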

How the data were processed

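RNA-seq was measured in 8 libraries of R1 mESCs in 3 groups. The authors aligned 100 bp read pairs with STAR to GRCm38 (mm10) and deposited raw counts per gene from featureCounts 1.6.2 with GENCODE M24, for 55385 genes, without strand and without fragments that align to several places or fall on several genes. The deposited gene length served only for levels per kb. Names came from GENCODE M21 for 55144 genes, and columns were matched to samples by their titles. No per-sample column was left out.

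Genes passing filterByExpr (minimum count 10, 17445 genes) were normalized by TMM (factors 0.935 to 1.04) and tested with glmQLFit and glmQLFTest in edgeR 4.0.16 (R 4.3.3, limma 3.58.1), with a coefficient for each group over all 8 libraries and a Benjamini-Hochberg adjusted p under 0.05. The authors' own test was DESeq2. The SE was taken from the F statistic. On simulated counts for shRNA2 against nt-shRNA, 200 genes among 17049 tested were changed 2-fold. All genes had the same dispersion, and the changed ones were drawn from genes with higher counts. Of these, 100 of the genes raised and 100 of those lowered were recovered, and 3.8% of calls were false. Recovery of smaller changes, of genes with few counts, or with as many genes changed as in these data was not tested. Libraries of a group differed beyond sampling noise (chi-square per gene of 3.12 to 12.17), so none was merged. The common biological coefficient of variation was 0.0638.

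As alternatives, the Wald test of DESeq2 1.42.0 was run, and the edgeR fit was repeated with median-ratio size factors, with totals as the sole scaling, unfiltered, with a minimum of 10 counts in each library, on pairs of groups, with a block for the replicate number, and after leaving out each library. The members, clusters, parental alleles and gene lists (imprint maintenance factors, other imprinted genes, related copies, cell type markers) were written from general knowledge with earlier results of these data known. Named were all members, the 3 genes of each gene list with the smallest adjusted p under shRNA2, the related copies, genes that surround or overlap a member, and *Eftud2*. Chosen after their values were seen were some marker genes, 3 other tested genes of the *Meg3* interval and some other imprinted genes near a member. The imprint maintenance factors *Zfp57*, *Ehmt2* and *Uhrf1* were named in the same way. Windows before RefSeq starts were searched for TGCCGC and GCGGCA with pandas 2.3.3 (Python 3.11.15), and figures were drawn with matplotlib 3.10.9. Splicing and allele-specific expression were not analysed here.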

Additional observations from a re-analysis of the deposited data

Results flagged for a closer look

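For 3 members the changes from nt-shRNA had opposite signs under the hairpins and the hairpins differed by edgeR's quasi-likelihood test. *Cdkn1c* was 0.29 above nt-shRNA under shRNA1 (adjusted p = 0.209) and changed by -0.82 under shRNA2 (adjusted p = 0.000915), a difference of -1.11 that stayed past the threshold in all 15 alternative settings (-1.22 to -0.94). Its shRNA1 change ran from 0.13 (without shRNA1 replicate 3) to 0.38 (without shRNA1 replicate 2). For *Kcnq1ot1* the changes were -0.15 and 0.10, neither past the threshold, and the difference of 0.25 (adjusted p = 0.0191) was lost in 4 of the 15 settings. For *Impact* they were -0.01 and 0.28, and the difference of 0.29 (adjusted p = 0.00132) held in all 15 settings, although the sign of the shRNA1 change did not.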

How the results depend on the processing

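Of the member calls, 3 of 11 under shRNA1, 19 of 26 under shRNA2 and 16 of 20 between the hairpins held in all 15 settings. The share of calls that held was not computed over all genes, so whether these counts are usual is not known. No called value changed sign. Under shRNA1 the members' median change of 0.10 became 0.21 with library size alone and ran from 0.05 (without shRNA1 replicate 2) to 0.14 with 1 library left out. In the same fits the number of members called ran from 5 to 13 (11 with all) and of all genes from 2948 to 5903 (5388 with all), lowest without nt-shRNA replicate 1. Under shRNA2 the median of 0.26 became 0.35 with library size alone, 0.19 with no filter, 0.29 with at least 10 counts in every library and 0.30 with the replicate block, and ran from 0.15 to 0.30 with 1 library left out. These moves were larger than the spread of 0.0231 between the shRNA2 replicates. That spread leaves out the difference between the nt-shRNA libraries, so it understates the spread of the comparison. The causes were not tested.

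Whether the same replicate numbers mark pairs was not settled. Correlations of same-numbered libraries were low, from -0.026 to 0.074, but each shRNA1 library correlated best among the shRNA2 libraries with its own number. With the replicate block 14, 25 and 20 members were called (11, 26 and 20 without). Of all genes 6018, 10034 and 6518 were called with it (5388, 9758 and 6204 without). With the block *Snrpn* under shRNA2 lost its call (adjusted p = 0.0516), and *Slc22a18*, *Igf2r* and *Mcts2* gained one under shRNA1.

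Other calls under shRNA1 were gained by *Grb10* (library size alone, at least 10 counts, only the groups compared, without shRNA1 replicate 3), *Mcts2* (library size alone, only the groups compared, without shRNA2 replicate 3), *Slc22a18* (only the groups compared, without shRNA1 replicate 3 or shRNA2 replicate 2 or 3), *H19* (no filter, without shRNA1 replicate 1 or nt-shRNA replicate 2), *Igf2r* (without shRNA1 replicate 3), *Peg12* (without nt-shRNA replicate 2) and *Snrpn* (without shRNA1 replicate 1 or shRNA2 replicate 2). Between the hairpins calls were gained by *Rian* (no filter, without shRNA1 replicate 3 or shRNA2 replicate 3), *Ndn* (without shRNA2 replicate 2) and *Nnat* (without shRNA1 replicate 3).

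Values that changed sign were all of members not called. Under shRNA1 they were, with library size alone, *Phlda2* 0.05, *Rian* 0.05, *Zim1* 0.05, *Copg2* 0.02 and *Impact* 0.10, for *Impact* also 0.02 with at least 10 counts, 0.01 with only the groups compared and 0.03 with the block, and *Dlk1* -0.05 with the block. With 1 library left out under shRNA1, *Phlda2* ran from -0.28 to 0.18, *Rian* from -0.13 to 0.01, *Zim1* from -0.19 to 0.06, *Impact* from -0.06 to 0.06, *Dlk1* from -0.08 to 0.38, *Peg12* from -0.09 to 0.60, *Gnas* from -0.37 to 0.06 and *Usp29* from -0.09 to 0.35. Under shRNA2 *Dlk1* and *Ndn* were at 0.01 with library size alone, and with 1 library left out *Dlk1* ran from -0.27 to 0.10, *Ndn* from -0.22 to 0.01 and *Gnas* from -0.42 to 0.01. Between the hairpins, with 1 library left out, *H19* ran from -0.12 to 0.68, *Snrpn* from -0.05 to 0.03, *Gnas* from -0.19 to 0.05 and *Dlk1* from -0.47 to 0.00. Some other shRNA1 changes of members not called moved without a change of sign when 1 library was left out. *Rtl1* ran from 0.02 to 0.18, *Plagl1* from 0.02 to 0.10, *Ndn* from 0.03 to 0.11 and *Kcnq1ot1* from -0.19 to -0.09. Depth limits *H19*, *Magel2*, *Usp29*, *Zim1* and *Peg13*, whose highest counts in a library were 62, 44, 31, 66 and 75.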
